A study of Mus musculus with 30 samples.

Results

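The tumour suppressor gene Trp53, its head-to-head neighbour Wrap53 and 7 p53 target genes were described through the ChIP-seq peaks that lie in their gene bodies or within 10 kb to either side. The targets were Mdm2, Cdkn1a, Ccng1, Bbc3, Bax, Sesn2 and Trp53inp1. The 9 genes were chosen by name, with the remodeler peaks at the Wrap53 site already known from these lists, out of 21911 protein-coding genes of GENCODE M21 (GRCm38). Together the windows held 1198 of the 1428772 peaks in 20 deposited lists.

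The cells were E14 mouse embryonic stem cells grown in serum-free medium with LIF, PD0325901 and CHIR99021. All carried CTCF AID, a degron fused to the insulator protein CTCF that lets the auxin IAA trigger its destruction. Peaks of CTCF and of the cohesin subunit SMC1A came from the CTCF AID line, with 1 library without IAA (0 h) and 1 after 12 h of IAA. CHD4, CHD8, SMARCA4 and SMARCA5 were mapped through a biotin tag, each in a line of its own (CTCF AID and biotin-CHD4, and likewise for the other 3), with 2 libraries at each time. Among the samples used here no line without the degron was given IAA, so the auxin itself and the loss of CTCF cannot be told apart. The labels do not say whether the replicates were separate cultures, so a p-value here measures only the spread between these libraries, which may be technical.

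p53 is a transcription factor that binds DNA as a tetramer, at a pair of half-sites, and turns on genes of cell cycle arrest, apoptosis and stress defence. Mdm2 is a ubiquitin ligase that destroys p53 and is itself a p53 target, which closes a feedback loop. CHD4 is the ATPase of the NuRD complex, SMARCA4 that of BAF and SMARCA5 that of the ISWI complexes. CHD8 is a chromodomain remodeler known as a partner of both CTCF and p53.

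Depth was unknown, because the lists hold peaks and not reads. The CTCF list fell from 29934 to 2248 peaks, which is the check of the degron. The SMC1A list fell from 16724 to 10 peaks, with 1 library a time. The part of library depth or quality in that fall was not tested. The CHD4 lists held between 105001 and 187294 peaks and those of replicate 2 were made of narrower peaks (median 119 and 94 bp, against 433 and 475 bp in replicate 1). For CHD8, replicate 1 had 51943 peaks before and 51840 after IAA, and replicate 2 had 40880 and 42297. The SMARCA4 lists held between 70428 and 102636 peaks, and the SMARCA5 lists between 55488 and 73238. Peak height is given below as the percentile of a peak by −log10 p within its own list, where 100 is the strongest, and is not compared as a change between lists.

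The CTCF sites are shown first by sequence, because the 4 sites that kept a CTCF peak at 12 h have a stretch of letters in common. A site without a 12 h peak, Bbc3+1729, also holds that stretch. The 0 h list held 15 CTCF peaks that reached the windows, named here by the nearest member and the distance in bp of the summit from that gene's start. All 15 held a match to a 19-letter CTCF matrix built from peaks on chromosomes without members, as did 90% of all CTCF sites. The 4 sites that still had a CTCF peak at 12 h read as follows, 5′ to 3′ on the motif strand of GRCm38, with the 19-letter match in capitals and 5 flanking bases to either side.
Wrap53+779 (chr11:69579433-69579451, minus strand): aggggACGGTAGGGGGCGCTCGTGtagtt
Mdm2+62 (chr10:117710727-117710745, minus strand): cgcggACGGTAGGGGGCGCTCGTCacaga
Cdkn1a+4657 (chr17:29095629-29095647, minus strand): tgatgCCGGTAGGGGGCGCTGTGCactca
Sesn2 −4430 (chr4:132514928-132514946, minus strand): tctggCCTGCAGGGGGCGCTGCGGgctcg
The matches of Wrap53+779 and Mdm2+62 had 18 of 19 letters in common. Sites without a 12 h CTCF peak are shown by 4 examples of their most frequent form and by the strongest site of the loci that lost its peak.
Mdm2+28038 (chr10:117682714-117682732, minus strand): agaggCCAGAAGAGGGCAACAGATttcct
Ccng1 −8271 (chr11:40763586-40763604, minus strand): agtgtCCAGAAGAGGGCACTGGACaccct
Bax+3824 (chr7:45463037-45463055, minus strand): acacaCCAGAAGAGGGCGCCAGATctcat
Bax −4183 (chr7:45471055-45471073, plus strand): caaaaCCAGAAGAGGGTGCCAGATtctct
Bbc3+1729 (chr7:16310120-16310138, minus strand): actagCCACCAGGGGGCGCGGGCGagccc
The matches of Bax+3824 and Bax −4183 also shared 18 of 19 letters.

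The 8-letter word shared by the largest number of the 15 matches was GAAGAGGG, in 6 sites (Mdm2+28038, Mdm2+22328, Ccng1 −8271, Wrap53+4841, Bax+3824 and Bax −4183), and 0 of the 6 had a CTCF peak at 12 h. Among the rest AGGGGGCG and the overlapping GGGGGCGC were tied as the most shared, in the same 5 sites (the 4 retained sites and Bbc3+1729), of which 4 had one. The former, first in the alphabet, was used. It also stands in the consensus of the CTCF matrix, which Bbc3+1729 matched with a higher score than 99.81% of all CTCF sites. The words were read on the motif strand of the best match and were chosen after the matches and the 12 h peaks had been seen. Over all CTCF sites with a match, GAAGAGGG stood in 18.0% (4849 sites) and AGGGGGCG in 9.54% (2571 sites). Of the GAAGAGGG sites, 2.56% had a 12 h CTCF peak, of the AGGGGGCG sites 18.2%, and of those with neither word 7.96%. The sites differed in strength, with median percentiles of 37.3, 69.0 and 54.1 in the 0 h list. Among sites at percentile 90 or more the shares were 36.4% of 121, 57.7% of 591 and 40.7% of 2140. Strength still differed within that band in the same order as retention, with median percentiles of 92.8, 96.4 and 94.8. From percentile 50 to 90 the shares were 4.96%, 11.1% and 7.82%. Below percentile 50 they were 0.0319%, 0.12% and 0.214%, so that the order of the last pair was the other way round. The shares below percentile 50 rest on only 1, 1 and 19 sites with a 12 h peak. With 1 CTCF library a time there is no test, and the part of peak strength in these shares was not tested.

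**Figure D1:**
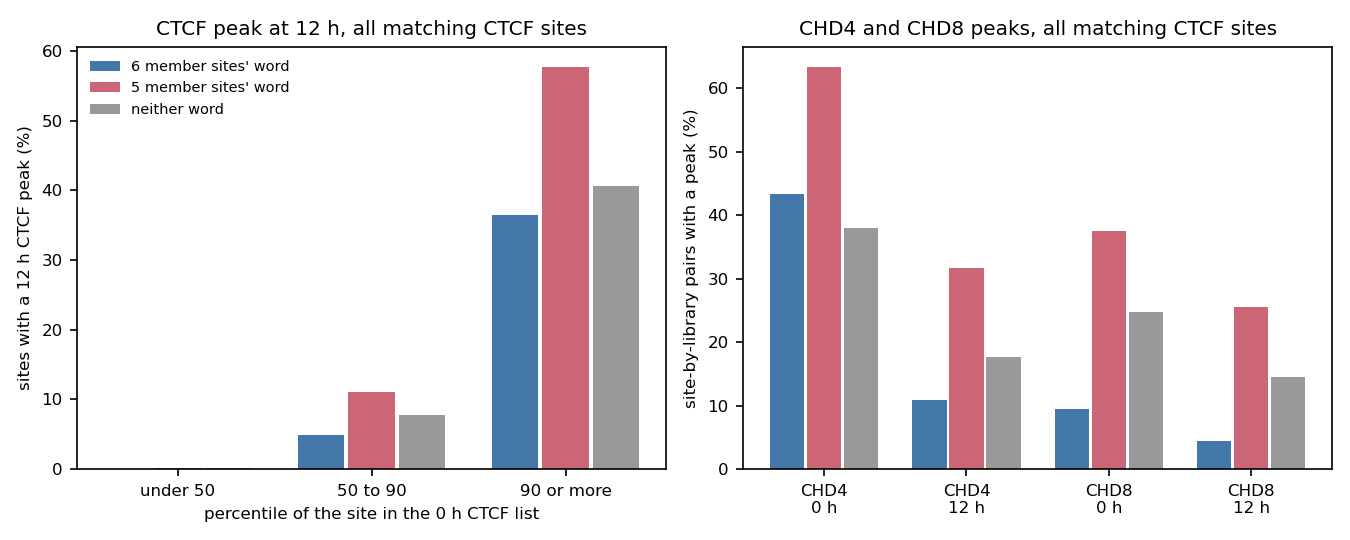
Left, share of CTCF sites with a 12 h CTCF peak (y axis, %) by percentile band in the 0 h list (x axis), for all sites with a matrix match; blue, sites with GAAGAGGG (6 member sites), red, AGGGGGCG (5 member sites), grey, neither. Right, share of site-by-library pairs with a CHD4 or CHD8 peak (2 libraries a time); blue sites go from 43.3% to 10.9% in CHD4 and red sites from 63.3% to 31.7%.

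CTCF remained at 4 of the 15 sites (26.7%), against 7.44% of all 29934 CTCF peaks. Retention went with peak strength: the 4 retained member sites had a median percentile of 90.03 and the other 11 of 61.8. With all CTCF peaks in 10 bins by strength, the retained share was 8.28%, 17.05% and 43.69% in the 3 strongest bins. Of the 3 member sites at percentile 90 or more, 2 had a 12 h peak: Wrap53+779 (percentile 99.3, authors' fold enrichment 43.3 at 0 h and 16.7 at 12 h) and Cdkn1a+4657 (96.0, fold 33.4 and 9.55). Both lie in introns. Mdm2+62, in a UTR of Mdm2, had percentile 84.0 and folds of 25.4 and 13.1, and Sesn2 −4430, upstream of the gene, had 73.4 with folds of 13.7 and 7.24. Bbc3+1729, in an intron of the PUMA gene, was at percentile 94.2 and had no 12 h peak. SMC1A was at 9 of the 15 sites at 0 h (60%), against 45.8% of all CTCF sites. At 12 h it was at 0 of them, but the whole SMC1A list then held 10 peaks, so this says little about these sites. Cohesin was among the strongest of its list at Cdkn1a+4657 (percentile 99.1) and Wrap53+779 (97.2), whereas Mdm2+62, Sesn2 −4430 and both intronic Bbc3 sites had no SMC1A peak.

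**Figure D2:**
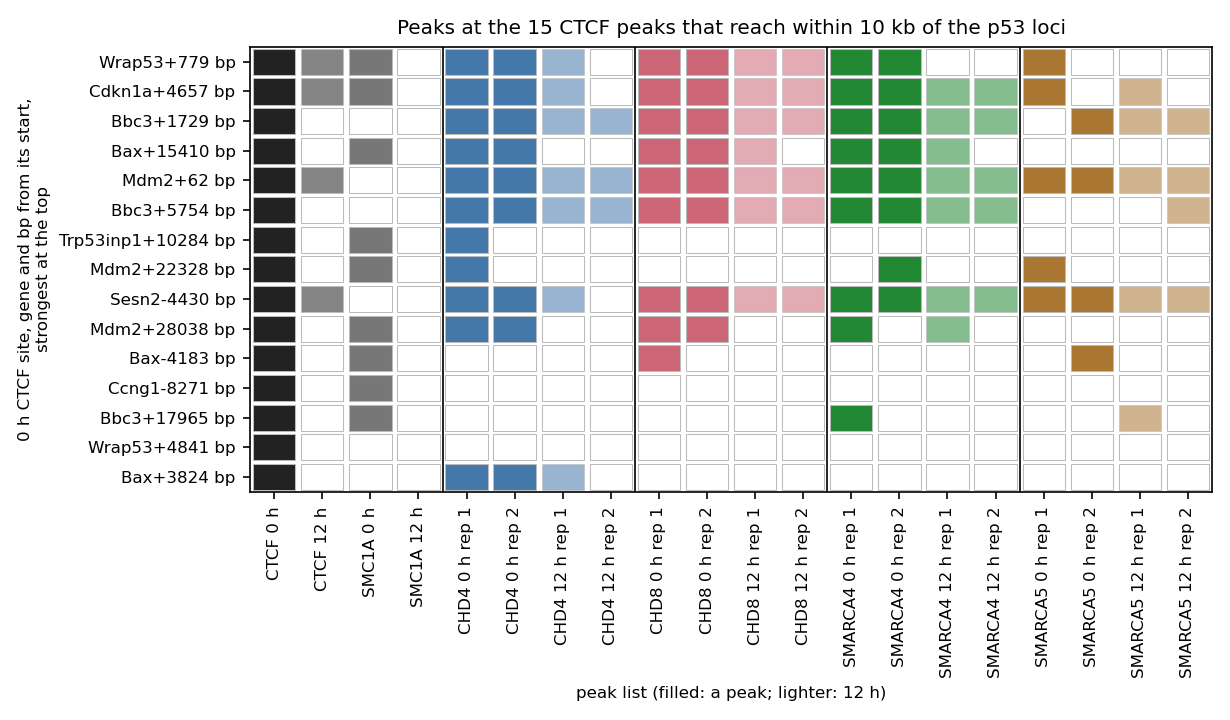
Presence of a peak (filled) at each of the 15 CTCF sites (rows, strongest CTCF peak at the top) in each peak list (columns; darker fill 0 h, lighter 12 h; black and grey are CTCF and SMC1A). Mdm2+62 has a peak in all 16 remodeler lists, while Wrap53+779 has SMARCA4 peaks in the 2 lists of 0 h and in neither of 12 h.

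Remodeler peaks at the CTCF sites were counted over the 8 libraries of each time, within 100 bp of the summit. Mdm2+62, at the Mdm2 promoter, had a peak in 8 of 8 libraries at both times. Sesn2 −4430 went from 8 to 7, Cdkn1a+4657 from 7 to 6, Bbc3+1729 from 7 to 8 and Bbc3+5754 from 6 to 7. At these 5 sites CHD8 and SMARCA4 peaks stood in every library of both times. Wrap53+779, which lies at −883 bp from the Trp53 start, went from 7 to 3 libraries, Bax+15410 from 6 to 2, and Mdm2+28038 from 5 to 1. Mdm2+22328 went from 3 to 0, Bax −4183 from 2 to 0 and Bax+3824 from 2 to 1, and Trp53inp1+10284 from 1 to 0. Bbc3+17965 had 1 at each time, and Ccng1 −8271 and Wrap53+4841 had none in any library.

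CHD8 alone had a peak over Wrap53+779 in all 4 of its lists. Bbc3+1729 and Bbc3+5754 were overlapped by CHD4 peaks in all 4 lists, at percentiles from 96.0 to 99.7, although neither had CTCF at 12 h. Most of these peaks had their summits outside the site windows. At Bbc3+1729 the summits lay between +1469 and +1514 bp. At Bbc3+5754 they lay between +4182 and +4251 bp in both 0 h lists and in 12 h replicate 1. Only in 12 h replicate 2 did a peak, 218 bp wide, have its summit in that window (+5756 bp). Bax+3824 had CHD4 at percentiles 96.7 and 98.1 at 0 h, 57.9 in replicate 1 at 12 h and no peak in replicate 2. A peak in both 0 h lists and neither 12 h list was found in CHD4 at 2 of 11 member sites with a CHD4 peak (Mdm2+28038 and Bax+15410), against 23.1% of all sites. The same was found in CHD8 at 1 of 9 (Mdm2+28038; 15.1% of all sites), in SMARCA4 at 1 of 10 (Wrap53+779; 5.97%) and in SMARCA5 at 0 of 9 (8.23%). These shares are near the background, and 2 libraries against 2 cannot give an exact two-sided p under 0.333.

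At Wrap53+779 the 12 h SMARCA4 peaks stopped just short of the site window. The 0 h SMARCA4 peaks that reached this window were the broad Trp53 promoter peaks, 6080 and 6018 bp wide. That of replicate 2 covered the CTCF summit. That of replicate 1 began past the summit and the motif and overlapped only the side of the window towards Trp53. In the 12 h lists those peaks were 5700 and 5272 bp wide and their borders lay 96 and 12 bp outside the window of 100 bp to either side of the summit.

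The change was tested per site as the mean over the 4 remodelers of the share of libraries with a peak, 12 h minus 0 h, by an exact permutation test that exchanged time labels within each remodeler (1296 relabellings, two-sided, Benjamini-Hochberg over 18350 sites). No site was called (0%), while 515 had an unadjusted p under 0.05, of which 512 went down and 3 up. The smallest p the exchange allows is 0.00154, reached by 7 sites where 567 would be needed for an adjusted p under 0.05, so the test could call a site only if many changed in full. The smallest unadjusted exact permutation p at a member was 0.0833, for Wrap53+779 and for Bax+15410, each with a change of −0.50 and an adjusted p of 1. Of the 15 member sites, 2 of which had no remodeler peak, 9 went down and 2 up, beside 75.0% and 10.6% of all sites tested. The mean change was −0.16 over the 15 and −0.17 over all sites tested. It was −0.08 (all sites −0.11) when a summit had to lie in the window.

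Most gene starts carried called peaks of every remodeler. Within 1 kb of the start, 6 of the 9 genes (Trp53, Wrap53, Mdm2, Ccng1, Bax and Trp53inp1) had a peak in all 16 remodeler libraries, as did 43.6% of the 15559 starts tested. CHD4, CHD8 and SMARCA4 were present at all 9 starts in every library. Gaps occurred in SMARCA5 alone: Cdkn1a had a SMARCA5 peak in 1 of its 4 lists (12 h replicate 2), Bbc3 lacked one in 12 h replicate 2, and Sesn2 in 0 h replicate 1. The mean share of libraries with a peak was lower at 12 h at 1 member (Bbc3) and higher at 2 (Cdkn1a and Sesn2), beside 20.1% of starts lower and 23.4% higher. With only peaks of −log10 q of at least 5, it was lower at 6 of the 9 and higher at 1, a mean change of −0.07 in place of 0.01, beside 31.3% of starts lower and 33.3% higher. The same exact permutation test over 15559 starts called 0%, with 22 at an unadjusted p under 0.05 (14 down and 8 up). At least 481 starts would have had to reach the smallest p for any to be called, and 0 did, so the test says nothing about whether the starts were stable.

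**Figure D3:**
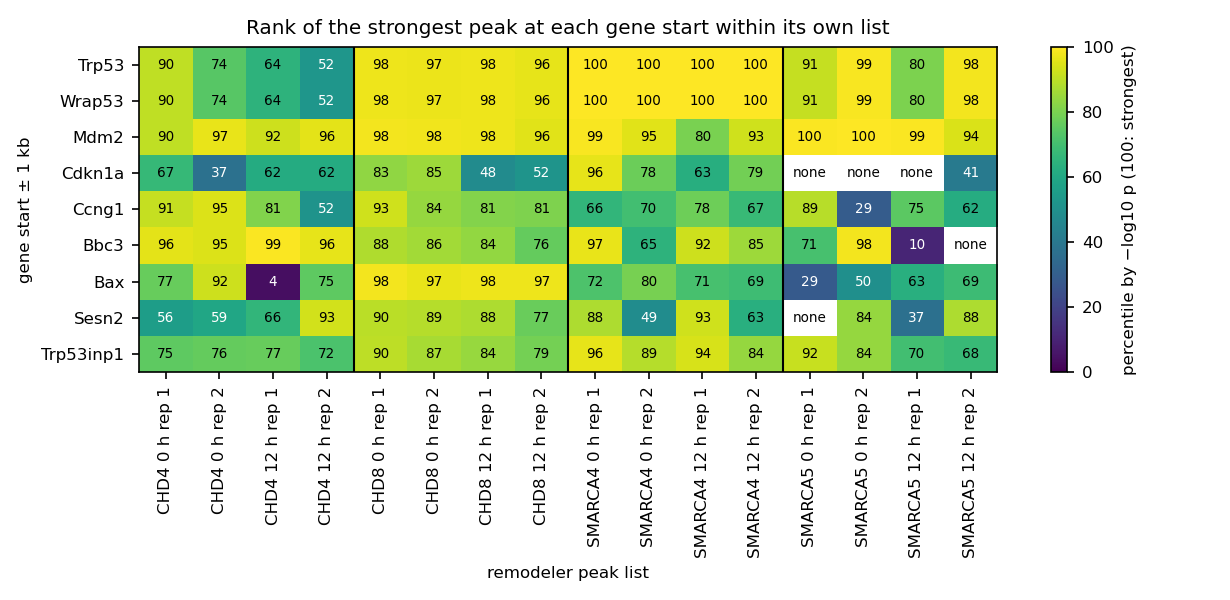
Percentile by −log10 p, within its own list, of the strongest peak within 1 kb of each gene start (rows) in the 16 remodeler lists (columns); white cells have no peak. Trp53 and Wrap53 share their peaks and stand at 99.67 to 99.98 in SMARCA4, from peaks whose summits lie beyond 1 kb. Cdkn1a has no SMARCA5 peak in 3 of 4 lists.

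Trp53 and Wrap53 start 104 bp apart and are transcribed away from each other. Wrap53 encodes a telomerase and Cajal body protein. The whole stretch between the starts lay inside a peak in 13 of the 16 remodeler libraries, and it is shown because every SMARCA4 and CHD8 promoter peak of the locus spans it. It is 103 bp long with 56.3% G and C, and its 4 CpG dinucleotides are in capitals.
Between the starts of Wrap53 and Trp53 (chr11:69580256-69580358, plus strand): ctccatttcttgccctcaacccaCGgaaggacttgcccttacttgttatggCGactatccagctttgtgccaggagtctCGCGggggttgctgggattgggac

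The SMARCA4 peak over this promoter was among the strongest of the genome, at percentiles 99.98 and 99.89 at 0 h and 99.67 and 99.97 at 12 h. Its summits lay inside Trp53, at +1334 and +2046 bp at 0 h and +2045 and +2028 bp at 12 h. The CHD8 peak there was 4432 and 4178 bp wide at 0 h and 4720 and 4469 bp at 12 h, with percentiles between 96.2 and 97.6. The CHD8 summits lay between +942 and +973 bp. CHD8 covered 6149 and 6515 bp of the Trp53 window at 0 h and 6711 and 6280 bp at 12 h, and the groups overlapped. CHD4 stood lower in its own lists, with its strongest peaks within 1 kb of the start at percentiles 90.3 and 74.2 at 0 h and 64.5 and 52.4 at 12 h. Those of 0 h had summits at +2017 and −955 bp, away from the start. The CHD4 peaks with summits nearest the start were at 32.8 and 72.6 at 0 h and 64.5 and 52.4 at 12 h. Those with summits nearest +2 kb were at 90.3 and 94.2 at 0 h and 83.9 and 76.5 at 12 h.

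One Trp53 peak stood apart from all others. Both CHD8 lists of replicate 2 held a peak in the gene body with identical borders (chr11:69586674-69587734, 1061 bp), with its summit 6801 bp from the start at 0 h and 6855 bp at 12 h. Its authors' fold enrichment was 16.3 (percentile 90.5) at 0 h and 33.1 (97.4) at 12 h. It spans 3 Trp53 exons, which make up 366 bp of it. Neither replicate 1 list of CHD8 had a peak there, and of the other remodeler lists 1 did (CHD4 12 h replicate 2, 105 bp wide). Of 40880 peaks in the 0 h list of replicate 2, only 2 had the same start and end in the 12 h list of replicate 2, and this was the only 1 of them without a peak in replicate 1. The peak was thus in both times of 1 replicate and in neither time of the other, and its source was not tested.

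**Figure D4:**
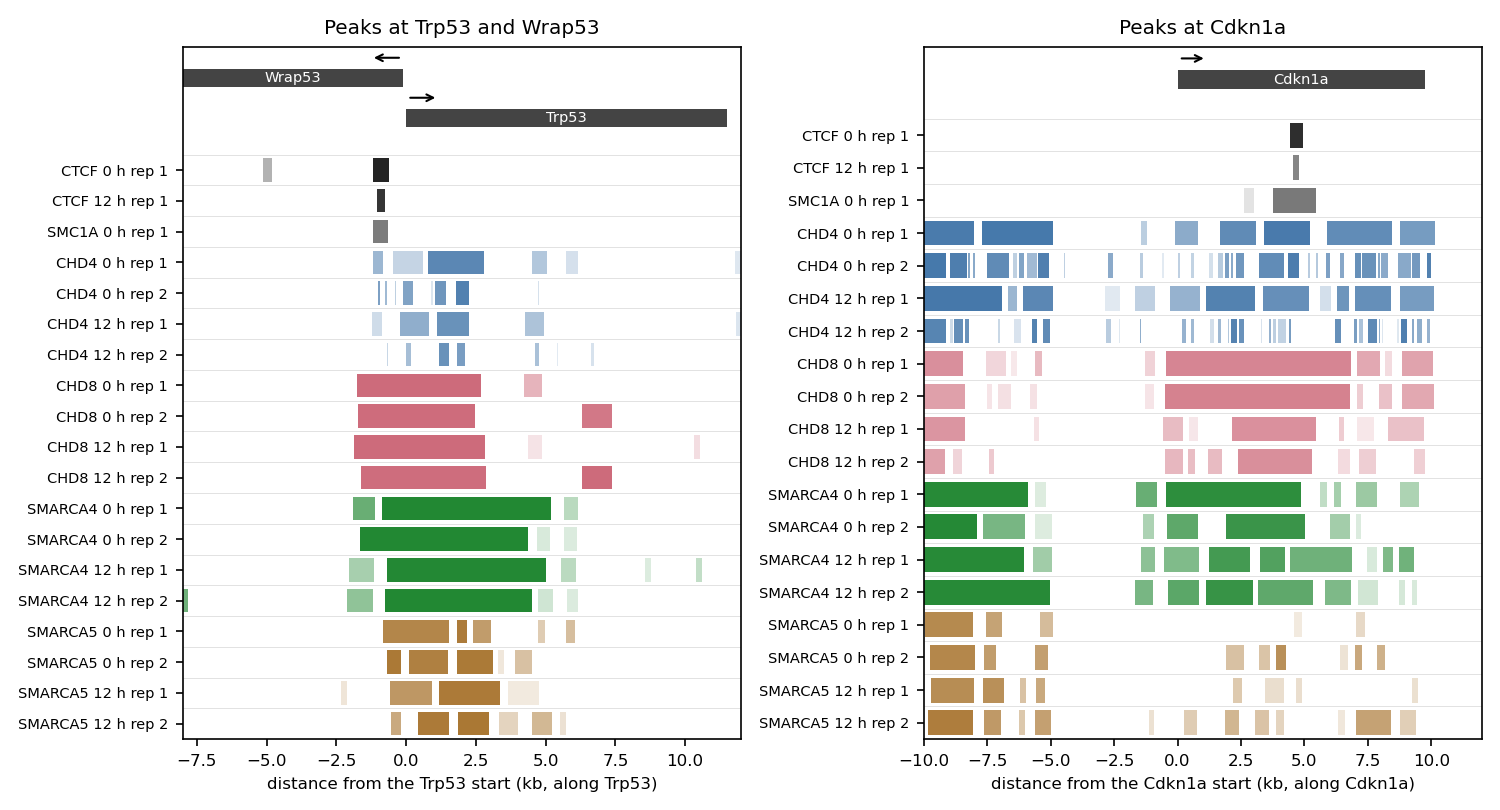
Peaks (bars) of each list (rows) around Trp53 and Wrap53 (left) and Cdkn1a (right), by distance in kb from the gene start along the gene; darker bars have a higher percentile in their list, dark grey boxes are genes and arrows give the direction of transcription. The Cdkn1a gene-body peak of CHD8 is 7321 and 7308 bp wide at 0 h and 3303 and 2934 bp at 12 h, and the Trp53 gene-body peak at 6.8 kb stands in the replicate 2 lists of CHD8.

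Mdm2 was held by strong peaks of all 4 remodelers at its promoter at both times. SMARCA5 stood there at percentiles 99.5 and 99.7 at 0 h and 99.3 and 94.4 at 12 h, the highest SMARCA5 ranks at 0 h of any of the 9 starts. CHD8 stood at 98.3 and 97.9, then 97.6 and 95.6, and SMARCA4 at 99.2 and 95.3, then 79.9 and 92.9. CHD8 peaks covered 6544 and 5655 bp of the Mdm2 window at 0 h and 3521 and 4995 bp at 12 h. The promoter peak itself was 3533 and 3256 bp wide at 0 h and 2608 and 3281 bp at 12 h. A second CHD8 peak, at −7052 bp and −7103 bp, was 1339 and 718 bp wide at 0 h, absent from 12 h replicate 1 and 988 bp wide in 12 h replicate 2.

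Cdkn1a, which encodes the cell cycle inhibitor p21, had the largest drop of the 9 loci in bp covered by CHD8. At 0 h a single CHD8 peak ran over the start and into the gene in both libraries, 7321 and 7308 bp wide. At 12 h the longest CHD8 peaks of the gene were 3303 and 2934 bp wide, and the start carried separate peaks of 807 and 685 bp. In all, CHD8 covered 12978 and 12348 bp of the window at 0 h (12663 ± 446, SD, n = 2) and 8571 and 7379 bp at 12 h (7975 ± 843, SD, n = 2), with no overlap between times. SMARCA4 covered 12917 and 10192 bp at 0 h and 13066 and 13168 bp at 12 h, so that its 12 h values lay above its 0 h values. CHD4 spread widely over the locus at both times, and its replicates differed more than the times (13158 and 9266 bp, then 14718 and 5992 bp).

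Ccng1 encodes cyclin G1, a p53 target that acts on p53 itself through Mdm2. Its only large CHD8 peak, at the start, was 2848 and 2702 bp wide at 0 h and 1802 and 833 bp at 12 h. CHD8 covered 3785 and 3206 bp of the Ccng1 window at 0 h and 1996 and 1600 bp at 12 h, the lowest log2 ratio of the 9 genes (−0.92). The CTCF site at −8271 bp had no remodeler peak within 6584 bp in any list.

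The apoptosis genes differed from each other. Bbc3, which encodes the BH3-only protein PUMA, had CHD8 coverage of 7988 and 6064 bp at 0 h and 5444 and 4765 bp at 12 h, without overlap. Its start peak of CHD8 was 2604 and 2512 bp wide at 0 h and 2204 and 2233 bp at 12 h. Bax, the pore-forming BCL2 relative, had 12101 and 9847 bp at 0 h and 10547 and 7836 bp at 12 h, and these overlapped. Its start peak of CHD8 was 2566 and 2210 bp wide at 0 h and 1795 and 1800 bp at 12 h, at percentiles between 96.7 and 98.1. SMARCA4 covered more of the Bax window at 12 h (7427 and 6646 bp, then 8845 and 8381 bp).

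Among the stress genes, Sesn2 encodes sestrin 2, which restrains the growth kinase mTORC1. Its CHD8 coverage was 9530 and 7244 bp at 0 h and 9198 and 6626 bp at 12 h, with overlap, and its SMARCA5 coverage went from 4600 and 3651 bp to 5276 and 7005 bp. Trp53inp1 encodes a nuclear protein that promotes p53 activity. Its CHD8 start peak was 2602 and 2827 bp wide at 0 h and 1470 and 1546 bp at 12 h. The window had 3681 and 3665 bp of CHD8 at 0 h and 2233 and 2633 bp at 12 h, while its SMARCA5 coverage went the other way, from 2272 and 3476 bp to 3611 and 4264 bp.

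CHD8 thus covered less of the window at 12 h, with both 12 h libraries below both 0 h libraries, at 5 of the 9 loci (Mdm2, Cdkn1a, Ccng1, Bbc3 and Trp53inp1), against 10.5% of 16711 genes with a CHD8 peak. With all peaks and libraries 0 members went the other way, which 13.1% of genes did. In windows of 2 kb 1 member went the other way, beside 14.4% of genes. Without 0 h replicate 1 or 0 h replicate 2, 1 member did, beside 45.4% or 15.5% of genes. Without 12 h replicate 2, 2 did, beside 51.7%. The median log2 ratio of mean coverage, 12 h over 0 h with 100 bp added to each, was −0.45 over the 9 genes and 0.01 over all genes. The lists as a whole did not shrink: CHD8 peaks covered 41.1 and 30.1 Mb at 0 h and 43.0 and 30.8 Mb at 12 h. The count over all genes was chosen after seeing the data, Trp53 and Wrap53 share peaks, and 2 libraries against 2 allow no p under 0.333. With peaks of −log10 q of at least 5 alone, it fell to 3 of 9 (Cdkn1a, Ccng1 and Trp53inp1) beside 9.98% of genes, with a median log2 ratio of −0.15 over the 9 genes. Leaving out CHD8 0 h replicate 2 or 12 h replicate 1 gave 7 of 9, beside 43.1% or 46.5% of all genes, and the part of the unequal list lengths of replicates 1 and 2 in these values was not tested.

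The other remodelers showed no such count. In CHD4 the rule was hard to meet, because the replicate 2 lists were made of much narrower peaks. By this rule CHD4 covered less at 0 of the 9 loci (5.29% of genes). At Mdm2 CHD4 covered 11277 and 3396 bp at 0 h and 6202 and 1593 bp at 12 h (log2 ratio −0.90). At Ccng1 it covered 1876 and 489 bp, then 1106 and 209 bp (−0.76). The median CHD4 log2 ratio was −0.24 over the 9 genes and −0.16 over all genes, and only Sesn2 stood above 0 (0.08). SMARCA4 covered more at 2 (Cdkn1a and Bax; 27.6% of genes) and SMARCA5 at 3 (Wrap53, Sesn2 and Trp53inp1; 22.6%), which are shares near their backgrounds.

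**Figure D5:**
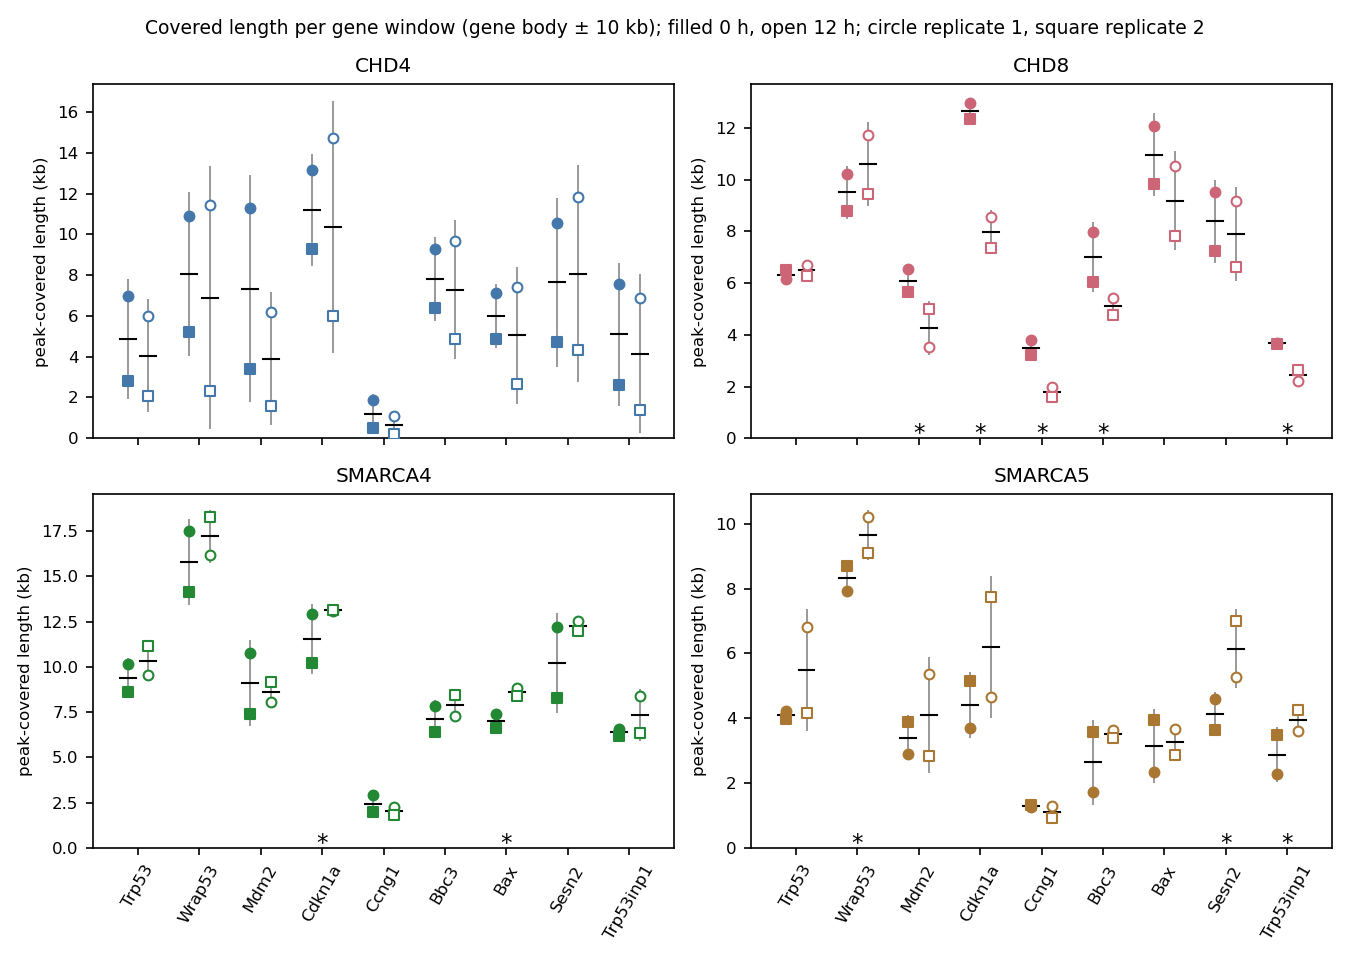
Length covered by peaks (kb) in each gene window, by remodeler (panels); filled symbols 0 h, open 12 h, circles replicate 1, squares replicate 2, black lines means, grey lines SD (n = 2), and an asterisk marks groups that do not overlap. CHD8 has 5 asterisks, all with lower 12 h values, and CHD4 has none.

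A list of 42 other p53 pathway genes was looked at in the same way. CHD8 covered less at 12 h at 6 of the 40 with a CHD8 peak. These were Mdm4, the p53 inhibitor related to Mdm2, the p53 targets Aen, Btg2, Gtse1 and Phlda3, and the family member Trp73. It covered more at 7, which were the checkpoint kinase gene Chek1 and the listed p53 targets Sfn, Ddb2, Polk, Pcna, Sesn1 and Rb1cc1. The median log2 ratio over the list was −0.03, and both counts are near the shares of all genes given above. At their starts, 23 of the 42 had a peak in all 16 libraries and 2 (Rb1cc1 and Trp63) in none. The mean change was below 0 at 8 and above 0 at 8, with 0 past the adjusted threshold of the exact permutation test. CHD4 peaks present in both 0 h lists and in neither 12 h list were found at Xpc and Pcna, which act in DNA repair and replication (2 of 40; 1.81% of all starts). The same was found for CHD8 at Trp73 (1 of 38; 1.3%) and for SMARCA5 at Eda2r, a death receptor gene (1 of 38; 1.11%). Xpc and Pcna each went from 8 to 5 libraries (unadjusted exact permutation p = 0.167, adjusted p = 1).

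The DNA under the shared remodeler peaks was searched for the p53 consensus, named here by its factor: a pair of 10-base half-sites with a spacer of 0 to 13 bp, at most 2 mismatches and none in the core C and G of a half-site. The consensus reads alike on both strands. Segments covered by at least 8 of the 16 remodeler libraries numbered 67028, of which 63 lay in the windows of the 9 genes. A match stood in 13 of the 63 (20.6%) and in 10.1% of all segments. The member segments were longer (median 560 against 385 bp), and segments of like length held a match in 13.4% on average. Matches without a mismatch stood in 2 member segments and in 0.225% of all. Matches with at most 1 mismatch stood in 6 member segments and in 2.01% of all. These 6 are shown as the closest to the consensus, with both half-sites in capitals, on the strand of the gene.
Cdkn1a, −54 bp (chr17:29090906-29090937): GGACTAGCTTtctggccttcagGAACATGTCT
Trp53inp1, −1309 bp (chr4:11155112-11155132): AAACATGTCCaGGACTAGCCT
Mdm2, −6988 bp (chr10:117717736-117717755): AAACATGTACAAACATGTCC
Ccng1, −161 bp (chr11:40755462-40755481): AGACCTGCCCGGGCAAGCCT
Ccng1, +365 bp, intron (chr11:40754936-40754955): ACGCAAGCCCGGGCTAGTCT
Bax, +1044 bp, intron (chr7:45465841-45465867): GAGCTTGTTTacgtggtGGGCCAGCCC
For the next shares matches were graded by mismatches alone, whatever the spacer, which was 12 bp at Cdkn1a and 1 bp at Trp53inp1. On that grade a match as good as that of Cdkn1a was held by 0.377% of segments of like length. For Trp53inp1 the share was 1.06%. The segment over the Trp53 promoter, which ran from −771 to +2963 bp, held no match, where 50.7% of segments of like length held one.

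Some segments held more than 1 match, and only the best of each member segment was scored. CHD8 lay over all 13 of these in at least 1 list. Of all 6767 segments with a match, 85.2% had a CHD8 peak. CHD8 was present in both 0 h lists and neither 12 h list at 2 of the 13, against 2.62% of the 5767 segments with a match and a CHD8 peak. These were the Trp53inp1 match shown and a weaker Cdkn1a match at −1256 bp. Both loci are among the 5 less covered by CHD8 at 12 h, so the 2 losses are not independent of that count. The Trp53inp1 match lay under the start peak at 0 h, and that peak ended short of it at 12 h. The Mdm2 match had CHD8 in both 0 h lists and in 12 h replicate 2. At the Cdkn1a match at −54 bp, at both Ccng1 matches and at the Bax match shown, CHD8 stood in all 4 lists. SMARCA4 stood in all 4 lists at 5 of the 6 matches shown, and in 3 at the Ccng1 match upstream of the start.

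For Trp53 and Cdkn1a, the genes with the most similar start were sought by the Euclidean distance between their 16 percentiles. Closest to Trp53 were Ppp1r15b (27.7), Usp48 (29.9), Lamtor2 and Ubqln4 (30.0 each, from a shared start) and D030056L22Rik (30.3), where the median gene had a distance of 220. Closest to Cdkn1a were Tmem218 (57), Diaph2 (60.6), Parva (61.4), Btg2 (65.5) and Pgrmc1 (68.9), beside a median of 184. Cdkn1a thus had no neighbour as close as those of Trp53. Btg2, itself a p53 target that slows the cell cycle, was the one of these genes that is in the pathway list.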

How the data were processed

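Peak lists of 20 ChIP-seq libraries were used, while 10 input samples were not analysed here. The authors deposited 1 list per library. The submitters' processing notes name Trim Galore, Bowtie2, MACS2 and deepTools and the builds mm10 and hg38, without versions. The deposited columns are a fold enrichment, a −log10 p-value and a −log10 q-value per peak, and the lowest −log10 q was 1.301. No peak ran past a GRCm38 chromosome end, and GENCODE M21 and RefSeq GRCm38.p6 supplied genes and sequence.

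From these lists, presence of a peak (at least 1 bp) was scored within 100 bp of each 0 h CTCF summit and within 1 kb of each gene start. Features with a peak in at least 1 of 16 remodeler libraries were tested with an exact stratified permutation test and Benjamini-Hochberg adjustment, in Python 3.11.15 with numpy 2.4.6 and pandas 2.3.3. The test was tested on simulated data. Fold and −log10 values were ranked only within a list. Covered length was the sum of peak lengths in a gene body with 10 kb to either side. The CTCF matrix came from the 2000 strongest CTCF peaks on chromosomes without members, and its threshold was passed by 5% of windows shifted by 10 kb.

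The genes, the pathway list and the rules were chosen with earlier results of these data known. Genes named were all 9 members, every CTCF site of their windows, the 5 most similar starts for Trp53 and Cdkn1a, and up to 6 pathway genes whose start was lost or gained in a remodeler. The pathway genes named for covered length were all those called for CHD8. They, the 8-letter words and the Trp53 gene-body peak were picked after their values were seen. Alternatives were equal list lengths, only peaks with −log10 q of 5 or more, summits in place of peaks, other window sizes, a replicate block, at least 4 libraries with a peak, all remodelers but SMARCA4, and each library left out in turn. Counting depth was unknown, so no interval was given. Same-numbered libraries were not taken as pairs.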

Additional observations from a re-analysis of the deposited data

Results flagged for a closer look

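At 2 loci, remodelers mapped in different lines went in opposite directions with no overlap between times. In the Cdkn1a window both 12 h CHD8 libraries covered less than both 0 h libraries (log2 ratio −0.66), while both 12 h SMARCA4 libraries covered more (0.18). The SMARCA4 rise was small against 0 h replicate 1 (12917 bp, then 13066 and 13168 bp) and larger against 0 h replicate 2 (10192 bp). That replicate 2 list covered 63.6 Mb in all, against 90.3 Mb in 0 h replicate 1 and 89.85 and 95.7 Mb at 12 h. The part of list length in the rise was not tested. In the Trp53inp1 window CHD8 covered less (−0.58) and SMARCA5 more (0.44). The difference between the remodelers was not tested. Opposite calls of this kind, for any pair of remodelers, were found at 6.7% of 18482 genes. Of the genes less covered by CHD8, 20.5% were more covered by SMARCA4 and 17.1% by SMARCA5. The SMARCA4 rise at Cdkn1a stood at percentile 46 of all genes and the SMARCA5 rise at Trp53inp1 at 65.9. More coverage at 12 h was frequent for SMARCA4 and SMARCA5 over all genes, with median log2 ratios of 0.22 for each, beside 0.01 for CHD8.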

How the results depend on the processing

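No CTCF site and no gene start passed an adjusted p under 0.05 under any alternative of the exact permutation test, including every left-out library (0 to 0 calls for sites and for starts). With a replicate block, 167 sites and 9 starts had an unadjusted p under 0.05 in place of 515 and 22, and 0 were called. Deviations of same-numbered libraries had a correlation of 0.316 for CHD8, but of 0.0494 for CHD4, −0.0217 for SMARCA5 and −0.0974 for SMARCA4. The numbers were not read as pairs, though for CHD8 that reading would differ. By number, CHD8 also covered less at 12 h in both replicates at Bax and Sesn2. It covered more in both at Wrap53 (10234 to 11744 bp and 8792 to 9447 bp). The share of all genes under that reading was not counted. The mean change over member sites ran from −0.08 with summits to −0.23 with 250 bp to either side. With summits in the window in place of peaks, Bbc3+1729 changed direction, to −0.125, and the cause was not tested. The CHD8 peak number summed over the 9 genes changed by −5.5 peaks a library in windows of 10 kb and by 0.5 in windows of 2 kb. The number of loci less covered by CHD8 was 3 with a −log10 q of at least 5, beside 9.98% of all genes. It was 5 with equal list lengths (13.3% of genes) and 6 in windows of 2 kb (11.8%). With 1 CHD8 library left out it was 5 to 7. It was 5 without 0 h replicate 1 (13.9%) or 12 h replicate 2 (12.1%), and 7 without 0 h replicate 2 (43.1%) or 12 h replicate 1 (46.5%). These alternatives were chosen after seeing the data. Peak lists give no depth, so an absent peak is a peak not called.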
